A study of Mus musculus with 16 samples.

Results

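Macrophages are recognised by a small set of surface receptors, endosomal proteins and secreted ligands that serve their growth, their recognition of microbes and their clearance of dying cells. Here 9 such genes (Csf1r, Mertk, Axl, Gas6, Cd14, Emr1, Cd68, Trem2 and Apoe) were followed through an RNA-seq study of bone marrow-derived dendritic cells (BMDCs). They were taken by name from a table of 23356 genes, and each name was found once. Gene expression was measured in BMDCs from wild-type (WT), Tmem173-/-, Irf1-/- and Irf3/7-/- mice, all listed with a C57BL/6 background, which were left untreated or were treated with c-di-GMP at 25 µg/ml, each for 18 h. Tmem173 encodes STING, the endoplasmic reticulum receptor for this bacterial cyclic dinucleotide, while Irf1, Irf3 and Irf7 encode interferon regulatory factors, Irf3 and Irf7 being deleted together. The dose is the one in the sample labels, and it differs from the dose in the study's legends for these libraries. The labels give neither the age of the mice nor whether the 2 samples of a condition came from separate animals.

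BMDCs were grown from red-cell-depleted marrow for 6 days with GM-CSF and IL-4, each at 10 ng/ml. Such cultures are not sorted populations and are known to hold macrophage-like cells and granulocytes beside dendritic cells. In these bulk samples, fewer cells of a type and less RNA per cell cannot be told apart. The deposited table has 1 value per gene and condition in FPKM (fragments scaled to the length of the transcript and the number of mapped fragments) with a confidence interval, and no values for the 2 samples behind it. Across the 72 values of the 9 genes, the interval reached from 22.4% to 54.5% of the value on either side, with a median of 26.5%.

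The targeted genes were read first. Tmem173 was at 8.97 FPKM untreated and 7.49 treated in Tmem173-/- BMDCs, against 103 and 118 in WT. Irf7 was at 1.07 and 4.97 FPKM in the conditions labelled Irf3/7-/-, against 15.2 and 687 in WT. Irf1 was at 25.9 and 116 FPKM in Irf1-/- BMDCs, against 149 and 245 in WT. Irf3 was at 7.74 FPKM in untreated Irf3/7-/- BMDCs and at 20.2 in treated ones, where WT had 19.9 and 15.8. Irf3 thus did not separate the treated condition labelled Irf3/7-/- from WT, and the label was checked by Irf7 alone. Low levels were not particular to the targeted genotypes, since in Tmem173-/- BMDCs Irf7 was at 3.17 and 3.37 FPKM and Irf1 at 24.1 and 23.3. A value over the whole gene counts reads from any part of it that a targeted allele keeps.

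As background, CSF1R is the receptor for CSF1 and IL-34 and drives the growth and survival of macrophages. MERTK and AXL are receptor tyrosine kinases of the TAM family, whose ligands GAS6 and protein S bridge them to phosphatidylserine on dying cells, and MERTK in particular is known for the uptake of apoptotic cells. CD14 is a co-receptor that hands lipopolysaccharide to TLR4 and MD-2. EMR1 is the F4/80 antigen and CD68 a glycoprotein of late endosomes and lysosomes. TREM2 is a lipid-sensing receptor that signals through the adaptor DAP12, encoded by Tyrobp, and APOE carries lipids out of cells and is a TREM2 ligand.

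In GENCODE annotation of GRCm38, all 9 are protein-coding. Mertk is on the plus strand at chr2:128698956-128802894, Axl on the minus strand at chr7:25757273-25788705 and Apoe on the minus strand of the same chromosome at chr7:19696109-19699188. Gas6 is on the minus strand at chr8:13465374-13494490 and Cd68 on the minus strand at chr11:69664213-69666153. Trem2, at chr17:48346401-48354147, and Emr1, named Adgre1 in GENCODE and at chr17:57358691-57483527, are on the plus strand. Csf1r and Cd14 are both on chromosome 18.

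After c-di-GMP, 3 of the 8 genes that could be tested changed in WT BMDCs: Cd14 and Mertk rose and Trem2 fell. A gene was called changed where the difference of log2(FPKM + 0.1) exceeded 1, so a fold change above 2, where the deposited intervals did not overlap, and where at least 1 FPKM was reached in one of the conditions compared. By this rule 20.5% of all 11201 genes tested were called in WT, 1175 of them higher and 1116 lower. None of the 8 was called in Tmem173-/- BMDCs, where 6 of 10867 genes (0.0552%) were called. Mertk rose and Trem2 fell in Irf1-/- BMDCs as well (17.5% of all genes tested were called), and in Irf3/7-/- BMDCs (17.9%) Mertk, Cd14 and Cd68 rose and Trem2 fell. The median log2 change of the 8 genes was 0.54 in WT BMDCs and 0.95 in those labelled Irf3/7-/-, against -0.10 without Tmem173 and -0.12 without Irf1, beside medians over all genes tested between -0.0216 and 0.0045. Gas6 stayed below 1 FPKM in all 8 conditions and entered no test.

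**Figure D1:**
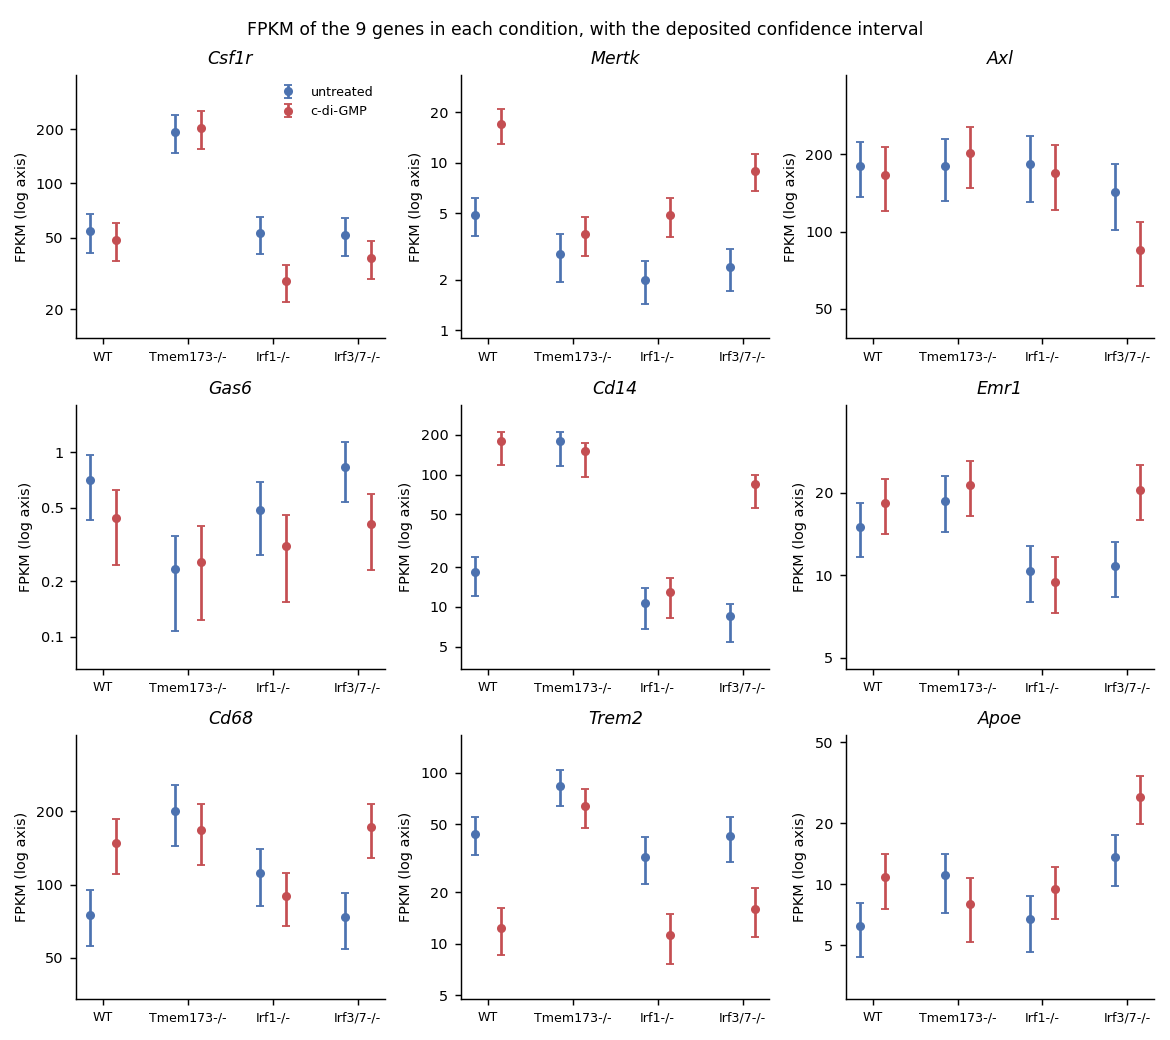
FPKM (log axis) of the 9 genes in the 4 genotypes, untreated (blue) and treated with c-di-GMP (red); points are the value of a condition and bars its deposited confidence interval. Cd14 goes from 18.5 to 181 FPKM in WT and from 8.57 to 84.2 FPKM in Irf3/7-/- BMDCs, and is at 181 FPKM in untreated Tmem173-/- BMDCs.

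Among the growth and identity receptors, Csf1r showed no called change with treatment in any genotype and was several-fold higher without STING. In WT BMDCs Csf1r was at 54.3 FPKM untreated (interval 41.2 to 67.4) and 48.6 treated (37.2 to 60.0). In Tmem173-/- BMDCs it was at 194 FPKM untreated (148 to 240.0) and 204 treated (156 to 252). Irf1-/- BMDCs had 52.8 FPKM untreated (40.4 to 65.2) and 28.6 treated (22.0 to 35.2), and Irf3/7-/- BMDCs had 51.7 (39.5 to 64.0) and 38.7 (29.5 to 47.9). The pair of Tmem173-/- conditions stood above the other 6 without overlap, while the 3 other untreated conditions overlapped each other. Csf1r in Tmem173-/- exceeded WT 3.57-fold untreated (log2 difference 1.84, ± 2 SE from 1.35 to 2.32) and 4.19-fold treated (2.07, from 1.59 to 2.54). The treatment difference in Irf1-/- BMDCs, -0.88 on the log2 scale (-1.36 to -0.41), had intervals that did not overlap, but at 1.84-fold it was not called.

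Emr1, the other surface identity gene, varied least of the 9, with 2.25-fold between its highest and lowest condition. It was at 15.0 FPKM untreated and 18.3 treated in WT, and at 18.7 and 21.4 in Tmem173-/- BMDCs. Irf1-/- BMDCs had 10.4 and 9.49 FPKM, and Irf3/7-/- BMDCs 10.8 and 20.6. No treatment change of Emr1 was called in any genotype. The rise in Irf3/7-/- BMDCs was 1.90-fold (log2 0.92, from 0.46 to 1.39), and treated Irf1-/- was 1.92-fold below treated WT (-0.94, from -1.40 to -0.48). Both fell short of the 2-fold limit, with intervals that did not overlap. The one Emr1 difference that was called lay between the treated interferon regulatory factor knockouts, where Irf1-/- was 2.15-fold below Irf3/7-/- (log2 -1.11, from -1.57 to -0.65).

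The TAM receptors behaved differently from each other. Axl was among the more abundant transcripts at 179 FPKM untreated (136 to 223) and 167 treated (121 to 213) in WT. Tmem173-/- BMDCs had 180.1 and 202 FPKM and Irf1-/- BMDCs 183 and 169. Irf3/7-/- BMDCs had 142 FPKM untreated and 84.7 treated. Axl was called in none of the 11 comparisons between conditions. Its lowest value, treated Irf3/7-/-, came closest: the difference of -0.98 from treated WT (-1.54 to -0.41) and the 0.996 by which treated Irf1-/- exceeded it (0.42 to 1.57, 1.995-fold) both fell just short of the 2-fold limit, with intervals that did not overlap.

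Mertk was lower than Axl in each condition and rose after c-di-GMP in the 3 genotypes with STING. In WT BMDCs it was at 4.89 FPKM untreated (3.65 to 6.13) and 16.9 treated (12.9 to 20.9), a 3.41-fold rise (log2 change 1.77, from 1.27 to 2.26). In Irf3/7-/- BMDCs it was at 2.39 FPKM untreated (1.72 to 3.05) and 8.96 treated (6.73 to 11.2), 3.65-fold higher (1.87, from 1.34 to 2.39). In Irf1-/- BMDCs it was at 2.01 FPKM untreated (1.43 to 2.57) and 4.85 treated (3.59 to 6.12), 2.35-fold higher (1.23, from 0.70 to 1.77), a call that is lost with a pseudocount of 1 FPKM or a minimum of 5 FPKM. Treated WT was the highest condition, treated Irf3/7-/- the second, and neither overlapped the one below it, whereas treated Irf1-/- and untreated WT overlapped. In Tmem173-/- BMDCs Mertk was at 2.83 FPKM untreated (1.95 to 3.72) and 3.74 treated (2.76 to 4.71), a log2 change of 0.39 (-0.18 to 0.96).

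The ratio of Axl to Mertk in FPKM, a comparison per length of transcript, therefore moved with treatment. It went from 36.7 to 9.86 in WT and from 59.7 to 9.45 in Irf3/7-/- BMDCs, and without Irf1 from 91.1 to 34.8. In Tmem173-/- BMDCs it was 63.6 untreated and 54.0 treated. Axl was called in none of these comparisons.

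The secreted TAM ligand Gas6 was scarcely detected. It was at 0.705 FPKM untreated and 0.439 treated in WT, and at 0.232 and 0.253 in Tmem173-/- BMDCs. Irf1-/- BMDCs had 0.487 and 0.312 FPKM, and Irf3/7-/- BMDCs 0.839 and 0.407. At this level the difference of untreated Tmem173-/- from untreated WT (log2 -1.28, from -2.00 to -0.56) was called once the 1 FPKM minimum was dropped. Pros1, which encodes the alternative ligand protein S, was higher throughout, at 18.2 FPKM untreated and 8.40 treated in WT. Pros1 was 32.5 FPKM untreated and 46.2 treated in Irf1-/- BMDCs, 2.45 above WT after treatment on the log2 scale, and 23.4 and 8.10 in Irf3/7-/- BMDCs.

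Cd14 had the widest range of the 9 genes, 21.1-fold between its extremes. In WT BMDCs it was at 18.5 FPKM untreated (12.0 to 23.7) and 181 treated (117 to 211), a 9.745-fold rise (log2 change 3.28, from 2.70 to 3.87). In Irf3/7-/- BMDCs it was at 8.57 FPKM untreated (5.47 to 10.5) and 84.2 treated (55.7 to 99.0), a rise of 9.72-fold (3.28, from 2.72 to 3.84). In Irf1-/- BMDCs it was at 10.6 FPKM untreated (6.83 to 14.0) and 12.9 treated (8.23 to 16.7), a log2 change of 0.27 (-0.40 to 0.94). Cd14 thus rose by about the same fold in WT and Irf3/7-/- BMDCs, the difference of the log2 changes being -0.0034 (-0.82 to 0.81), and the Irf1-/- change was 3.01 smaller than that of WT (-3.91 to -2.12 as the difference).

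Without STING, Cd14 was already high before treatment. It was at 181 FPKM untreated (116 to 210.0) and 151 treated (96.2 to 173) in Tmem173-/- BMDCs. Both values overlapped treated WT. Untreated Tmem173-/- exceeded untreated WT 9.746-fold (log2 difference 3.28, from 2.70 to 3.87), while treated Tmem173-/- and treated WT differed by -0.26 (-0.79 to 0.26). Of the treated knockouts, Irf1-/- was 13.95-fold (log2 -3.80, from -4.40 to -3.20) and Irf3/7-/- 2.15-fold (-1.10, from -1.63 to -0.57) below WT. The condition labelled Irf3/7-/- was lower by a like amount before treatment, at 2.14-fold (-1.10, from -1.72 to -0.48).

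Cd68 changed less than Cd14. It was at 75.4 FPKM untreated (55.8 to 95.03) and 148 treated (110.2 to 186) in WT, and at 73.5 (54.4 to 92.6) and 172 (129 to 215) in Irf3/7-/- BMDCs. It was at 201 FPKM (144 to 258) and 168 (121 to 214) in Tmem173-/-, and at 111 (81.9 to 140) and 89.9 (67.9 to 112) in Irf1-/- BMDCs. The rise in Irf3/7-/- BMDCs was called at 2.34-fold (log2 change 1.23, from 0.70 to 1.75). The WT difference, 1.96-fold (0.97, from 0.45 to 1.5003), was just short of the limit and passes it with median centring of the conditions (1.0006). Before treatment Tmem173-/- exceeded WT 2.67-fold (1.42, from 0.86 to 1.97).

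Trem2 was the gene that fell. It went from 44.0 FPKM (33.0 to 54.9) to 12.3 (8.53 to 16.1) in WT and from 32.2 (22.4 to 42.0) to 11.2 (7.61 to 14.8) in Irf1-/- BMDCs. In Irf3/7-/- BMDCs it went from 42.3 (29.8 to 54.9) to 16.0 (10.97 to 21.0). The 3 treated conditions overlapped each other and lay below the 5 others without overlap. The fall was 3.55-fold in WT (log2 change -1.83, from -2.40 to -1.26) and 2.86-fold without Irf1 (-1.52, from -2.15 to -0.88). It was 2.63-fold in Irf3/7-/- BMDCs (-1.40, from -2.02 to -0.78). In Tmem173-/- BMDCs Trem2 was at 83.8 FPKM (64.0 to 104) untreated and 63.6 (47.2 to 80.2) treated, and after treatment it stood 5.13-fold above WT (2.36, from 1.78 to 2.94).

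Apoe was low and was highest in the conditions labelled Irf3/7-/-. It was at 6.21 FPKM untreated (4.35 to 8.04) and 10.9 treated (7.53 to 14.1) in WT, and at 13.6 (9.76 to 17.5) and 27.0 (19.8 to 34.0) in Irf3/7-/- BMDCs. It was at 11.1 FPKM (7.25 to 14.1) and 7.97 (5.18 to 10.7) in Tmem173-/-, and at 6.74 (4.61 to 8.71) and 9.47 (6.74 to 12.1) in Irf1-/- BMDCs. Treated Irf3/7-/- overlapped no other condition, while untreated Irf3/7-/- overlapped both Tmem173-/- conditions, treated WT and treated Irf1-/-. Irf3/7-/- exceeded WT 2.18-fold untreated (log2 difference 1.12, from 0.54 to 1.71) and 2.47-fold treated (1.31, from 0.73 to 1.88). No treatment change of Apoe was called within a genotype; the nearest was 0.98 in Irf3/7-/- BMDCs (0.43 to 1.54).

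**Figure D2:**
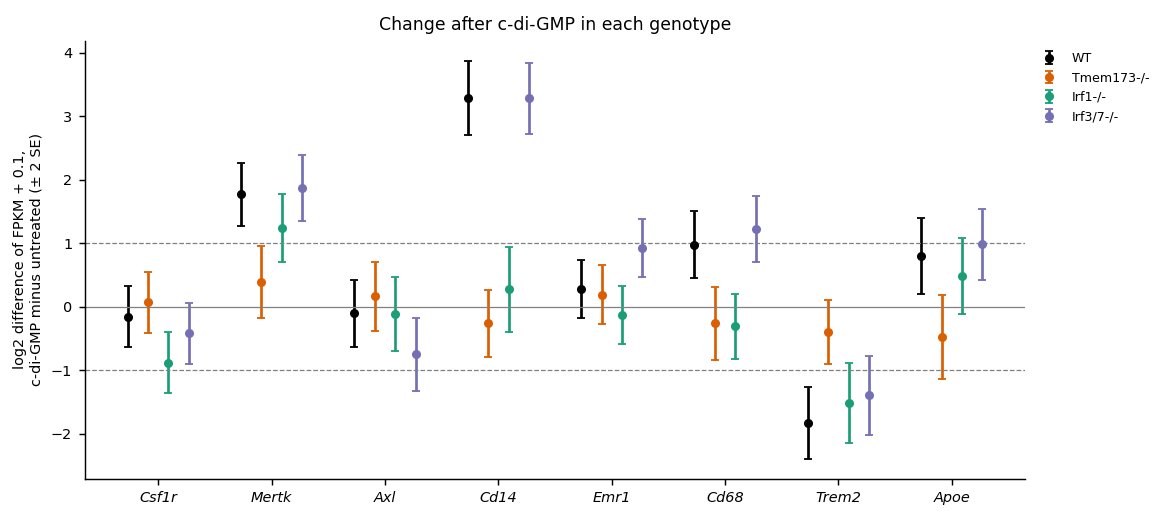
Difference of log2(FPKM + 0.1) between c-di-GMP and untreated BMDCs for the 8 genes tested, in each genotype; bars are ± 2 SE taken from the deposited intervals and dashed lines mark the 2-fold limit. Cd14 is at 3.28 in both WT and Irf3/7-/- BMDCs and at 0.27 in Irf1-/- BMDCs, and Trem2 lies below -1 in these 3 genotypes.

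Whether a knockout changed the response itself was asked of the difference between its log2 change and that of WT, called where it exceeded 1 and 2 SE. All 3 such comparisons share the WT conditions. For Tmem173-/-, 21.7% of all genes tested were called, and 5 of the 8 genes: Cd14 (-3.55), Mertk (-1.38), Apoe (-1.27) and Cd68 (-1.24) were lower and Trem2 (1.43) higher. For Irf1-/-, 5.03% of all genes were called, and Cd14 (-3.01) and Cd68 (-1.28, from -2.02 to -0.55) of the 8. For Irf3/7-/-, 6.32% of all genes were called and none of the 8, whose differences ran from -0.64 for Axl to 0.64 for Emr1. The Mertk response of Irf1-/- BMDCs differed from that of WT by -0.54 (-1.27 to 0.19), and Mertk in Irf1-/- BMDCs was below WT both untreated (-1.24) and treated (-1.78).

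Levels in treated BMDCs were compared with treated WT. Tmem173-/- had Csf1r and Trem2 higher and Mertk lower (log2 -2.15, from -2.65 to -1.65), where 26.3% of all genes tested were called. Irf1-/- had Cd14 and Mertk lower, Mertk 3.43-fold (-1.78, from -2.28 to -1.28), where 7.56% of all genes were called. Irf3/7-/- had Apoe higher and Cd14 lower, where 7.30% were called. Between the treated Irf1-/- and Irf3/7-/- conditions, 9.84% of all genes were called, and Cd14 (6.50-fold), Apoe (2.83-fold) and Emr1 were lower in Irf1-/- BMDCs.

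Untreated BMDCs of the knockouts already differed from untreated WT. Tmem173-/- had Csf1r, Cd14 and Cd68 higher, where 11.0% of all genes tested were called. Irf1-/- had Mertk lower, 2.37-fold (log2 -1.24, from -1.77 to -0.71), where 4.78% were called. Irf3/7-/- had Apoe higher and Cd14 and Mertk lower, where 2.04% were called; the Mertk value of -1.0043 (2.006-fold) sits on the limit. Both Mertk calls are lost with a pseudocount of 1 FPKM or a minimum of 5 FPKM, and that of Irf3/7-/- also with median centring (-0.9868).

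**Figure D3:**
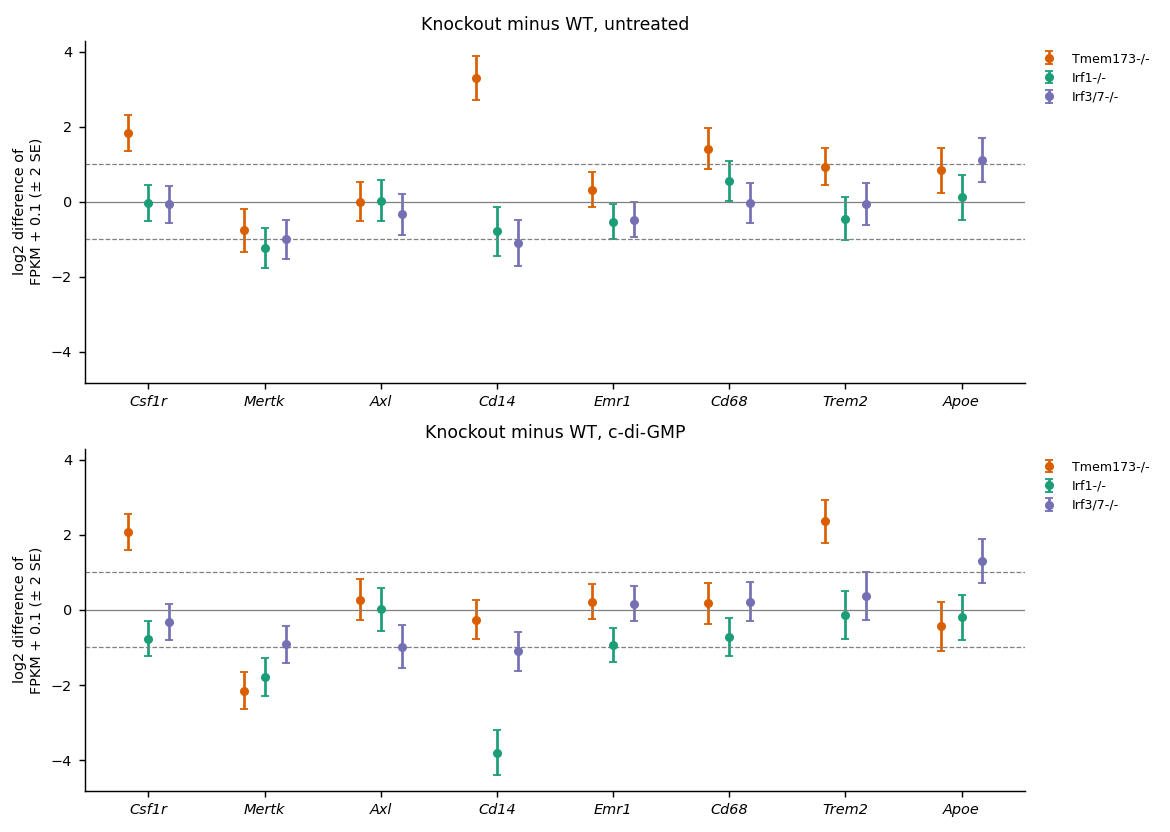
Difference of log2(FPKM + 0.1) of each knockout from WT for the 8 genes tested, untreated (upper panel) and treated with c-di-GMP (lower panel); bars are ± 2 SE taken from the deposited intervals and dashed lines mark the 2-fold limit. Cd14 of Tmem173-/- BMDCs is 3.28 above WT untreated and -0.26 from it treated, while Csf1r is above WT in both panels (1.84 and 2.07).

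Markers of other cells moved with the same conditions. Neutrophil markers summed to 20056 FPKM untreated and 14569 treated in Tmem173-/- BMDCs, against 1435 to 4052 in the 6 other conditions. S100a8 and S100a9 made up most of these sums, at 10351 and 8336 FPKM in untreated Tmem173-/- BMDCs. The S100a8 value of untreated WT (2531 FPKM) lay outside its own interval (1204 to 2169). Of 9 neutrophil markers tested, 7 were called higher than WT both untreated and treated, where 11.0% and 26.3% of all genes tested were called. Lyz2, shared by neutrophils and macrophages, was at 9000.2 and 7240.2 FPKM in Tmem173-/- against 776 and 423 in WT. Of the further macrophage markers described below, which include Lyz2, 6 of 11 tested were called higher than WT untreated and 0 lower. Treated, 7 of 12 were called higher and 2 lower, beside the same 11.0% and 26.3%. The part of cells with either set of markers in the higher Csf1r, Cd14, Cd68 and Trem2 of Tmem173-/- BMDCs was not tested.

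Lymphocyte markers separated the genotypes differently. The 8 natural killer (NK) cell markers summed to 419 FPKM untreated and 380 treated in WT and to 425 and 1084 in Irf3/7-/-, against 6.26 and 5.56 in Tmem173-/- and 12.3 and 13.7 in Irf1-/- BMDCs. The granzyme gene Gzma made up most of the sums in WT and Irf3/7-/-, at 349 FPKM in untreated WT and 900 in treated Irf3/7-/-. It was at 0 in both Tmem173-/- conditions. After treatment 3 of 6 NK markers tested rose in Irf3/7-/- BMDCs (17.9% of all genes tested were called). There 2 fell, Klrb1c from 4.05 to 0.618 FPKM and Eomes from 13.6 to 6.36. In WT 2 of 6 fell and 0 rose (20.5%). The 12 T cell markers summed to 91.8 and 65.7 FPKM in WT and 125 and 223 in Irf3/7-/-, against 5.48 and 4.76 in Tmem173-/- and 10.4 and 15.1 in Irf1-/- BMDCs. WT and Irf3/7-/-, in which Cd14 rose, were thus also the genotypes with these markers, and their part in the Cd14 and Cd68 results was not tested.

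Basophil and mast cell markers, like Apoe, were highest in Irf3/7-/- BMDCs, as were the NK and T cell sums. The 8 markers summed to 171 FPKM untreated and 262 treated in Irf3/7-/- BMDCs, against 56.4 to 93.9 in the 6 other conditions. Of the 7 tested, 6 were called higher than WT untreated and 7 treated, where 2.04% and 7.30% of all genes tested were called. Tpsab1 was at 0 in all 8 conditions. Their part in the Apoe result was not tested. B cell markers summed to at most 11.9 FPKM and erythroid markers to at most 82.4, of which Hbb-b1 was the one above 1 FPKM.

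**Figure D4:**
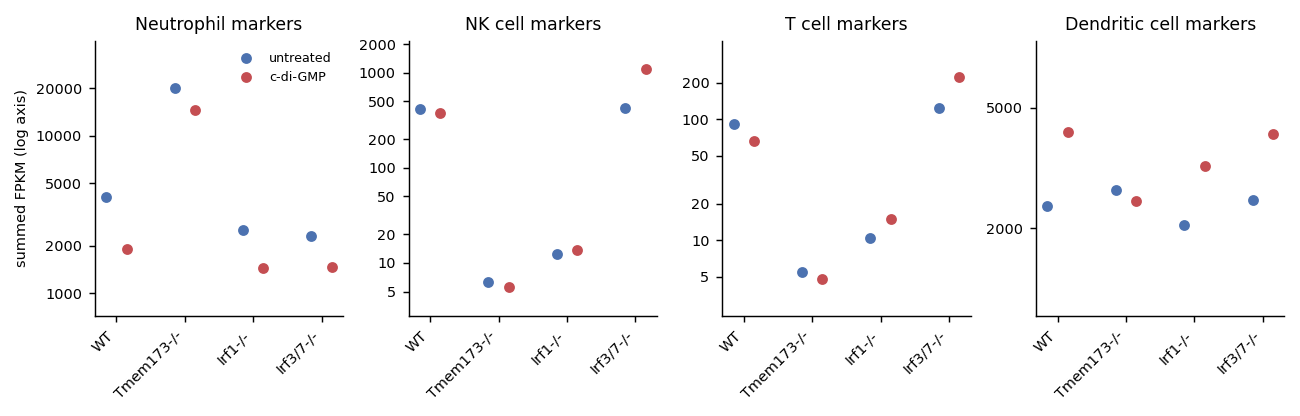
Summed FPKM (log axis) of the markers of neutrophils, NK cells, T cells and dendritic cells in each condition, untreated (blue) and treated (red). Neutrophil markers are highest in Tmem173-/- BMDCs (20056 and 14569), while NK and T cell markers are low in Tmem173-/- and Irf1-/- BMDCs. The dendritic cell sum of WT goes from 2358 to 4174 FPKM, with Ccr7 going from 265 to 1257 and Fscn1 from 136 to 523. Of 16 dendritic cell markers tested there, 3 rose and 2 fell, where 20.5% of all genes tested were called.

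The label of the cells was read from markers of dendritic cells and of other macrophages. In untreated WT BMDCs the class II gene H2-Ab1 was at 650.1 FPKM, Itgax (CD11c) at 210.0 and the dendritic cell factor Zbtb46 at 17.6, with Flt3 at 1.26. Of 18 dendritic cell markers, 15 reached 1 FPKM in untreated WT, while Xcr1 (0.268), Cd209a (0.182) and Siglech (0) did not. In untreated Irf1-/- BMDCs 3 of 16 tested were called lower than WT and 1 higher, where 4.78% of all genes tested were called. The 3 were H2-Ab1 (278 FPKM), H2-Eb1 (121 against 454 in WT) and Ciita (6.75 against 25.8). Of 18 further macrophage markers, 10 reached 1 FPKM in untreated WT, among them Lyz2 at 776, Itgam at 164 and Mpeg1 at 124 FPKM. Others, among them markers of tissue macrophages, were low in WT, and some of these differed by genotype. Vsig4 and Clec4f were at 0 in all 8 conditions and Cd163 reached at most 0.576 FPKM. Marco was at 10.5 FPKM untreated and 8.39 treated in Tmem173-/- BMDCs, against 1.30 and 1.33 in WT. Lyve1 was at 3.27 and 4.12 FPKM in Irf1-/- and 2.85 and 0.134 in Irf3/7-/- BMDCs, and Cd5l at 2.43 and 0.858 and at 2.37 and 1.76, while both were below 1 FPKM in WT and Tmem173-/- BMDCs. These 2 were the macrophage markers called higher in untreated Irf1-/- than in untreated WT BMDCs. Of 12 tested there, 5 were called lower, among them Fcgr4 (log2 -3.10) and C5ar1 (-1.86), where 4.78% of all genes tested were called. Of the 18 further macrophage markers, 11 could be tested in the WT response and 4 rose and 2 fell, where 20.5% of all genes tested were called. The interferon-inducible lectin Siglec1 went from 0.779 to 10.8 FPKM and the Fc receptor gene Fcgr4 from 5.28 to 47.6, while the mannose receptor gene Mrc1 fell from 9.52 to 0.721 FPKM. Mrc1 was at 42.7 and 48.7 FPKM in Tmem173-/- BMDCs.

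Genes of the same pathways, listed apart from the 9, were read next to them, and their WT response counts stand beside the 20.5% of all genes called in WT. Around Csf1r, of 13 ligand and lineage factor genes tested in the WT response, 2 rose and 3 fell (median log2 change -0.07). Csf1, a ligand of the receptor, was at 77.0 FPKM untreated and 58.5 treated in WT. Csf1 was at 22.3 and 24.7 FPKM in Tmem173-/- BMDCs, where Csf1r was high, and it was called lower than WT both untreated (log2 -1.79) and treated (-1.24). Il34, encoding the other ligand, was at 0.605 FPKM in treated WT and 1.58 in treated Irf1-/- BMDCs. The inhibitor of differentiation Id3 fell from 24.0 to 0.621 FPKM in WT. Klf4, a factor of monocyte differentiation, rose from 7.58 to 20.8 FPKM in WT and went from 10.6 to 1.81 in Irf1-/- BMDCs.

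Of 26 TAM and efferocytosis genes tested in the WT response, 5 rose and 9 fell (median -0.14), beside 20.5% of all genes. Thrombospondin 1, Thbs1, a bridging molecule for apoptotic cells, rose from 27.7 to 176 FPKM in WT and was at 24.4 in treated Irf1-/- BMDCs. The scavenger receptor gene Cd36 fell from 410.5 to 77.8 FPKM. C1qa, C1qb and C1qc, which encode the chains of complement C1q, each fell in WT, C1qb from 52.4 to 19.7 FPKM, and in untreated Irf1-/- BMDCs they were below WT by log2 differences of -3.28, -2.59 and -2.92. In untreated Tmem173-/- BMDCs 8 of 25 genes of the list were higher and 2 lower than WT (median 0.76), where 11.0% of all genes tested were called.

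Of 13 genes of lipopolysaccharide recognition tested with the WT response, 5 rose and none fell (median 0.73), among them Ly96, which encodes MD-2, from 12.7 to 30.6 FPKM, and Tlr2 from 21.0 to 67.3. In treated Irf1-/- BMDCs 4 of 13 were lower than WT and none higher, where 544 of 11079 genes tested were lower and 294 higher (7.56% in all); Tlr4, the partner of Cd14, was at 10.5 FPKM there against 32.5. Of 15 lysosomal genes, 2 rose and 1 fell in WT (median 0.68), with the protease gene Ctsk going from 2.29 to 19.2 FPKM and Ctsb from 224 to 609. Of 8 sheddase and inhibitor genes, Timp3 rose, from 1.09 to 2.62 FPKM, and the others were not called.

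Around Trem2, of 14 genes tested 2 rose and 1 fell in WT (median 0.03). The adaptor gene Tyrobp was at 391 FPKM untreated and 377 treated in WT, so the partner of Trem2 was not called where Trem2 fell, and it was at 1181 and 947 FPKM in Tmem173-/- BMDCs. Gpnmb, a glycoprotein gene of lipid-laden macrophages, moved opposite to Trem2, from 60.6 to 449 FPKM in WT and from 75.7 to 662 without Irf1. In Irf3/7-/- BMDCs it went from 107 to 876 FPKM. Around Apoe, of 20 lipid genes 5 rose and 3 fell in WT (median 0.50). The neighbouring apolipoprotein gene Apoc2, an activator of lipoprotein lipase, rose from 5.13 to 29.6 FPKM and the cholesterol transfer gene Npc2 from 179 to 787, while lipoprotein lipase, Lpl, fell from 1089.8 to 411 FPKM. Apoc2 also rose in Irf1-/- BMDCs, from 1.76 to 30.0 FPKM, and in Irf3/7-/- BMDCs, from 2.41 to 14.8.

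In Tmem173-/- BMDCs no gene of these 6 pathway lists or of the sheddases was called after treatment. These lists are described by counts and medians only, and nothing particular to them is read from the counts.

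The genes whose pattern was most like each of the 9 were found by Pearson's r of log2(FPKM + 0.1) over the 8 conditions, among about 7381 genes with at least 10 FPKM in one condition. Such values are descriptions over 8 points that share genotypes and culture, and the highest of so many correlations is high in any case. Trem2 was followed by Pak1 (r = 0.994), Prim1 (0.992) and Syce2 (0.992). Csf1r was followed by Hsd17b12 (0.987), Gas7 (0.985) and Msra (0.984), Mertk by Nod2 (0.985), Hpse (0.967) and Papd4 (0.962), and Cd14 by Sgms2 (0.976), Thbs1 (0.975) and Spryd7 (0.972). Nod2, an intracellular sensor of bacterial muramyl dipeptide, went from 5.33 to 13.4 FPKM in WT. Cd68 was followed by Neat1, Cd9 and Cxcl3, Emr1 by Tmem50b, Spryd7 and Slc39a4, Axl by Prkaca, Snord96a and St6galnac6, Apoe by Mid1, Mcpt8 and Tnf, and Gas6 by Cnot3, Crip2 and Clec4b2. Mcpt8 is a basophil protease gene of the marker list above. Among the 9 themselves, Cd14 went most with Emr1 (r = 0.909) and Cd68 (0.891), Trem2 with Csf1r (0.836), and Apoe ran opposite to Axl (-0.912).

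The 250 bases upstream of the annotated starts were read from RefSeq windows on GRCm38.p6, which were found for 6 of the 9 genes (Mertk, Axl, Gas6, Cd68, Trem2 and Apoe, the last with 3 windows). They were searched on both strands for a core of the interferon-stimulated response element (GAAANNGAA, held by 7.13% of 32851 windows of this length), the gamma-activated site (TTCNNNGAA, 7.02%) and the binding core of the myeloid factor PU.1 (GAGGAA, 23.3%). Shown are the gene that rose and the gene that fell in all 3 genotypes with STING, and the one window with a match to the interferon element. Capitals mark matches, TTCCTC being the PU.1 core on the other strand.
Mertk, chr2:128698665-128698914, plus strand: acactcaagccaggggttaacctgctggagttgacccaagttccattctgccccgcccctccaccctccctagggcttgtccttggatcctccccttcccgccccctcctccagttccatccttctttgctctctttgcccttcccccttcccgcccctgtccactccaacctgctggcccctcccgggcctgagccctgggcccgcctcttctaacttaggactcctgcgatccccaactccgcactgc
Trem2, chr17:48346151-48346400, plus strand: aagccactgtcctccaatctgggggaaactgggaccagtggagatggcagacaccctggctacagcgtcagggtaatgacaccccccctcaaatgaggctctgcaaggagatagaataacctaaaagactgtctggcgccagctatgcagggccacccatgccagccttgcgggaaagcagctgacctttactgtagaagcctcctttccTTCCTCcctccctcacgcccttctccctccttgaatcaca
Apoe, chr7:19699189-19699438, minus strand: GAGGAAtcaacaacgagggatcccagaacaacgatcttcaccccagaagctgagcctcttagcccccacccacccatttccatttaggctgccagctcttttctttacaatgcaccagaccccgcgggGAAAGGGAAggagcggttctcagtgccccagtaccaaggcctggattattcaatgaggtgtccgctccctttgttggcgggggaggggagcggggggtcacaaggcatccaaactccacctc
The Mertk window held none of the 3 motifs and the Trem2 window held the PU.1 core at -40 from the start. The Apoe window held the interferon element at -122 and the PU.1 core at -250. PU.1 cores were also found for Axl at -130 and Cd68 at -225 and in another Apoe window at -132, and Gas6 held none of the 3. A match is a description of letters in this window and no measure of binding, and nothing is drawn from the absence of one.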

How the data were processed

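The authors ran Cuffdiff in the DNAnexus pipeline on libraries made with a stranded mRNA kit, and deposited 1 table of FPKM values, in which the 2 samples of a condition are combined, with the bounds of a confidence interval and a status for each value. The submitters' processing notes give Cuffdiff 1.06 and the build mm9. However, the deposited positions overlapped the GRCm38 gene of the same name for 21454 of 21681 genes (99%), so gene positions are given from GENCODE on GRCm38. The aligner, the annotation and the strand setting of the Cuffdiff run are not given in the sources used here. One further condition in the table (1 condition, 4 columns) matched no sample label and was not used.

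FPKM values were transformed as log2(FPKM + 0.1) in Python 3.11.15 with pandas 2.3.3. The width of each deposited interval was taken as 4 SE. Between conditions (11 comparisons), a gene was called where the fold change exceeded 2, the intervals did not overlap, the value reached 1 FPKM in one condition and the status was OK in both. Differences between responses (3 comparisons) were called past a log2 value of 1 and 2 SE. No p-value was computed, since no values of single samples were used; whether the samples came from separate animals is not given, and depth cannot be read from FPKM. The intervals hold Cuffdiff's own estimate of the error and could not be checked against replicates. In each condition at most 95 genes with at least 1 FPKM had a value outside their own interval, and none of the 72 values of the 9 genes did.

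The 9 genes and the 15 gene lists (206 genes, 204 of them in the table) were chosen with earlier results of these data known. All 9 were described in every comparison. In each list the text draws on the genes called in the WT response (at most the 3 largest rises and 3 largest falls) and those most changed in treated knockouts against treated WT. Other list genes, among them ligands, adaptors and C1q chains, were named after their values were seen. For likeness, the 3 genes of highest r were taken for each. The call rules were also run on simulated data, with noise drawn from the deposited intervals and changes of 4-fold or more. Such a run cannot show whether the intervals match the spread of replicates, or how calls behave near the 2-fold limit. Each call was repeated with pseudocounts of 1 and 0.01 FPKM, without a minimum or with one of 5 FPKM, with a fold of 1.5 or 4, after median centring, with the fold alone, and with a z from the intervals at an adjusted q under 0.05.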

Additional observations from a re-analysis of the deposited data

Results flagged for a closer look

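The treatment response of 5 of the 8 genes tested differed between Tmem173-/- and WT BMDCs by more than 1 on the log2 scale and by more than 2 SE, where 21.7% of all genes tested did. The difference, Tmem173-/- minus WT, was -3.5465 for Cd14, -1.3818 for Mertk, -1.2745 for Apoe, -1.2385 for Cd68 and 1.4309 for Trem2. For Apoe neither genotype's own change was called (0.80 in WT and -0.48 in Tmem173-/-). For Cd14 the untreated value in Tmem173-/- BMDCs (181 FPKM) was already at that of treated WT (181 FPKM).

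Between Irf1-/- and WT BMDCs the responses of Cd14 (-3.0134) and Cd68 (-1.2807) differed, where 5.03% of all genes tested did. Cd68 was at 111 FPKM untreated and 89.9 treated in Irf1-/-, with overlapping intervals, against 75.4 and 148 in WT. These differences rest on 1 combined value per condition, and the WT conditions are shared by both sets.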

How the results depend on the processing

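Of 1107 values of the 9 genes recomputed under an alternative, 1062 kept their side of the limit, 30 lost the call and 15 gained it. No called value changed sign, while 3 uncalled values near 0 did. With a fold limit of 4 the number of genes called fell to 1 in the WT response, 0 in the Irf1-/- response and 1 in the Irf3/7-/- response. With that limit it was 1 for treated Irf1-/- and 0 for treated Irf3/7-/- against WT, 1, 0 and 0 for untreated Tmem173-/-, Irf1-/- and Irf3/7-/- against WT, and 1 between treated Irf1-/- and Irf3/7-/-. It was 1 for the difference in response of Tmem173-/- and 1 for that of Irf1-/-. With a fold limit of 1.5 the number rose to 4 for treated Irf1-/- and 4 for treated Irf3/7-/- against WT, and to 6 between them. That limit also gained Cd68 in the WT response, Csf1r in the Irf1-/- response and Emr1 and Apoe in the Irf3/7-/- response. Trem2 was gained for untreated Tmem173-/- against WT, and Csf1r for the difference in response of Irf1-/-. Calls over all genes also rose at this limit, to 463 higher and 714 lower for treated Irf1-/-, 707 and 485 for treated Irf3/7-/-, and 581 and 954 between them, and they fell in each comparison with a limit of 4. With a pseudocount of 1 FPKM it was 1 in the Irf1-/- response and 0 for untreated Irf1-/- against WT, and a minimum of 5 FPKM gave the same 1 and 0; Mertk is the gene lost in each. A pseudocount of 0.01 FPKM, the fold alone and, between conditions, the z from the intervals changed no call of the 9 genes. Median centring shifted no condition by more than 0.0355 (log2). With it Cd68 gained the call in the WT response (1.0006), and Mertk lost it for untreated Irf3/7-/- against WT (-0.9868). Among 75 counts over gene lists, 49 moved by over 1.5 times with a fold limit of 4 and 20 with a minimum of 5 FPKM. No paired analysis was possible because the deposited values combine the samples of a condition, and for the same reason leaving out a replicate was not run. Depth is unknown, which limits Gas6 most, at under 1 FPKM in all 8 conditions.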
